A study of Mus musculus with 15 samples.

Results

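The MYC and MAX network is the set of basic helix-loop-helix leucine zipper factors that meet on MAX or on its relative MLX. Its members were taken by gene name from all genes listed in any of the 4 deposited tables, and 10 of 11551 genes belonged to it: Myc, Mycn, Max, Mxd1, Mxd3, Mxd4, Mxi1, Mnt, Mlx and Mga. RNA sequencing was done on 15 libraries of mouse Abelson pre-B cells, immature B-lineage cells turned into lines by the viral Abl oncogene. All 5 groups, of 3 libraries each, were at passages 10 to 15 and had been kept for 48 h in imatinib, which inhibits Abl kinases. Art_shBCLAF1 cells were Art -/- (lacking Artemis, a nuclease that opens hairpin-sealed ends during antigen receptor gene assembly) and carried a short hairpin RNA named for BCLAF1. Art cells were Art -/- with no hairpin. Rag_SPIC_tet_DOX_shBCLAF1 cells were Rag -/- (lacking the recombinase that cuts antigen receptor genes) with a tetracycline-regulated SPIC construct, doxycycline (DOX) and that hairpin. Rag_SPIC_tet_DOX cells had the construct and DOX without the hairpin, and Rag_SPIC_tet_NoDOX cells had the construct with neither. The labels name no control hairpin and do not say which promoter drives the construct, whether a line is a clone, or whether the 3 libraries of a group came from separate cultures, so each p-value reflects the spread among these libraries, which may be technical.

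MYC and its relative MYCN bind DNA as partners of MAX at the E-box and raise the transcription of genes for ribosome production, nucleotide and amino acid metabolism and cell division. The MXD proteins, MXI1 and MNT compete for MAX and the same E-box and bring in the SIN3 corepressor with its histone deacetylases. MLX pairs with the glucose-responsive factor MondoA and also with MXD1, MXD4 and MNT, and MGA pairs with MAX in a Polycomb complex, PRC1.6. In the B lineage, Mycn is known from the earliest progenitors and Myc from dividing large pre-B cells.

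The E-box is the site through which these factors act, so the promoters were searched for it. RefSeq windows of the 250 bases before a gene's start (build GRCm38.p6, whereas the authors' notes name mm9) were matched for 9 of the 10 members, and Myc was the gene with none. The E-box CACGTG, which reads the same on both strands, was in the windows of 3 members, Mxd4, Mnt and Mlx, against 6.02% of 32851 windows of all genes. The motif GAGGAAG or its reverse complement CTTCCTC, the core bound by PU.1 and its relative SPIC, was in the window of 1 member, Mnt, against 10.6% of all windows. The 3 windows with an E-box are shown because they belong to a MAX-bound repressor that fell with the hairpin label, a repressor that did not pass the test, and the alternative partner that rose, and the Mycn window is shown as one with neither motif. Capitals mark the motifs, and each sequence runs 5′ to 3′ in the direction of the gene.
Mxd4, chr5:34187711-34187960, minus strand, E-box from 219 bases before the start: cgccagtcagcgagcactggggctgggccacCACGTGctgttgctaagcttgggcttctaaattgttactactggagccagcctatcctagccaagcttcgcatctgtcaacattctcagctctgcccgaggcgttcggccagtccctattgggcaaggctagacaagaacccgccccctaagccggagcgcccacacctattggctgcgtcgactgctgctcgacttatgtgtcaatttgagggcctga
Mnt, chr11:74830674-74830923, plus strand, E-box from 123 and GAGGAAG from 161 bases before the start: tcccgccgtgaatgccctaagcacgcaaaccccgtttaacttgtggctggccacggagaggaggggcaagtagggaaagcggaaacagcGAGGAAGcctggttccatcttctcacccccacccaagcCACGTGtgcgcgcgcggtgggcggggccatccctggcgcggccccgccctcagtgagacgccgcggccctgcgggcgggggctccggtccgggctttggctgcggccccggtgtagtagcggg
Mlx, chr11:101087040-101087289, plus strand, E-box from 40 bases before the start: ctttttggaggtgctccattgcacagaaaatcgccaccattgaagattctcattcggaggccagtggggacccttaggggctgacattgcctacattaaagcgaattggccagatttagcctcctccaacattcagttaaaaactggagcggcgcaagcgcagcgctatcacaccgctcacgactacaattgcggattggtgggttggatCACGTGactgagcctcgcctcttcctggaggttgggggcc
Mycn, chr12:12941837-12942086, minus strand: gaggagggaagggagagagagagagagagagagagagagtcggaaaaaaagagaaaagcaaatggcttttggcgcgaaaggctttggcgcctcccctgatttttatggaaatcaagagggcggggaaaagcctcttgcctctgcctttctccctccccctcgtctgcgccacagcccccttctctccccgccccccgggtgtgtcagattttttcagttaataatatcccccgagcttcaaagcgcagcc
A match is a description of the letters in these windows, and no binding was measured here.

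Values are log2 CPM, the base-2 logarithm of read counts scaled to library size, and a difference of 1 is a doubling. Effective library sizes ran between 5.81 (Art replicate 3) and 27.1 in units of 1 M reads, and the member with the fewest reads in any library, Mycn, had 83 there. Art replicate 3 stood apart from its group, with a root-mean-square difference of 0.942 and 0.95 log2 units from the other Art libraries, against 0.267 between those. Rag_SPIC_tet_DOX replicates 1 and 2 differed by 0.83. The main counts of members and of gene lists are therefore also given without Art replicate 3 or Rag_SPIC_tet_DOX replicate 2 where leaving it out moved them. Bclaf1 mRNA was not lower in the libraries labelled shBCLAF1: it averaged 8.32 ± 0.03 log2 CPM in Art_shBCLAF1 and 7.32 ± 0.79 in Art, and 8.04 ± 0.06 in Rag_SPIC_tet_DOX_shBCLAF1 and 7.73 ± 0.04 in Rag_SPIC_tet_DOX (SD, n = 3). The Art mean held 6.41 in replicate 3, against 7.81 and 7.75 in the other Art libraries. The comparisons by hairpin therefore follow the label and not a measured loss of that mRNA. Spic mRNA moved with the label too, at 4.54 ± 0.24 in Art_shBCLAF1 and 0.44 ± 0.36 in Art, and at 7.46 ± 0.04 in Rag_SPIC_tet_DOX_shBCLAF1 and 4.21 ± 0.44 in Rag_SPIC_tet_DOX, with 0.82 ± 0.62 in Rag_SPIC_tet_NoDOX. All 10 pre-B markers on the list were in the tables, and their summed CPM was 4278 to 4803 in Art_shBCLAF1, 10717 to 11878 in Art, 5861 to 6058 in Rag_SPIC_tet_DOX_shBCLAF1, 6325 to 9284 in Rag_SPIC_tet_DOX and 7882 to 8246 in Rag_SPIC_tet_NoDOX. Of 11 myeloid markers 7 were in the tables, with sums of 80.4 to 97.9, 696 to 928, 58.8 to 64.3, 222 to 314 and 335 to 346 CPM in the groups in that order. Itgam carried most of the myeloid gap in the Art line, at a mean of 4.65 log2 CPM in Art_shBCLAF1 and 9.65 in Art. Adgre1 (-4.54 and -0.36), Lyz2 (1.46 and 2.97), Csf1r (-0.28 and 0.29) and Cd14 (-3.32 and -2.42) were also lower with the label, at low levels. Fcgr3 stood the other way, at 5.76 and 4.49, and so did Tyrobp, at 1.19 and 1.07. Of 10 T and NK markers 3 were in the tables, with sums of 33.0 to 37.0, 133 to 145, 49.0 to 49.5, 53.4 to 58.0 and 67.3 to 69.7 CPM in the same order of groups. Of 7 plasma cell markers 5 were in the tables, with 424 to 466, 542 to 674, 491 to 514, 440 to 606 and 611 to 629 CPM, and of 8 erythroid and megakaryocyte markers 3, with sums of at most 13.8 CPM. The part of these shifts in the results was not tested, and in bulk samples fewer cells of a type and less RNA per cell cannot be told apart.

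Myc was the member whose level varied most. Its lowest library (Rag_SPIC_tet_DOX replicate 2, 3.76 log2 CPM) and its highest (Rag_SPIC_tet_DOX_shBCLAF1 replicate 3, 9.29 log2 CPM) were 46.4-fold apart, a span of 5.54 log2 units that was larger than that of 97.6% of the genes in the tables. Mycn followed with a span of 3.36 log2 units, larger than that of 90.4% of genes. Max, the shared partner, was at the other end, with a span of 0.54 log2 units or 1.45-fold, larger than that of 5% of genes. The other 7 members spanned 0.82 (Mlx) to 1.86 (Mxd1) log2 units, against a median of 1.48 over all genes.

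**Figure D1:**
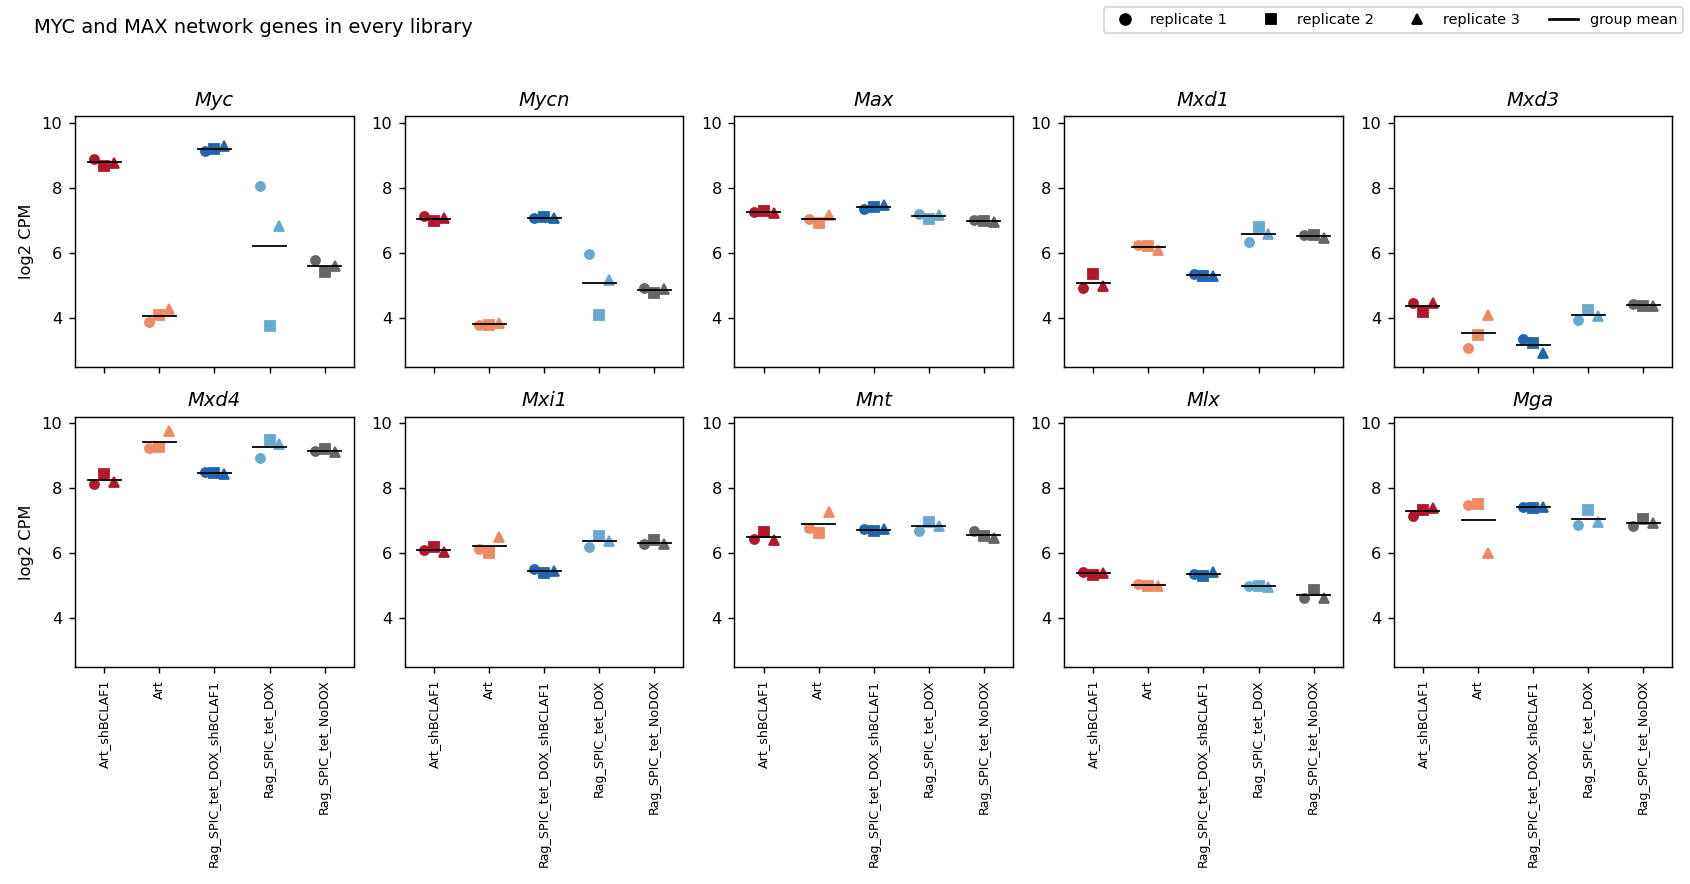
Log2 CPM of the 10 network genes (vertical axis) in the 5 groups (horizontal axis), with a marker for each library and a line at each group mean. Myc and Mycn were near 9 and 7 in both shBCLAF1-labelled groups and spread widely in Rag_SPIC_tet_DOX, where Myc was at 8.06, 3.76 and 6.83, while Max stayed between 6.93 and 7.47 in all libraries.

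Myc, the factor that drives growth and ribosome production, stood at 8.89, 8.68 and 8.78 log2 CPM in Art_shBCLAF1, against 3.87, 4.08 and 4.26 in Art. It stood at 9.13, 9.20 and 9.29 log2 CPM in Rag_SPIC_tet_DOX_shBCLAF1, against 8.06, 3.76 and 6.83 in Rag_SPIC_tet_DOX and 5.77, 5.41 and 5.60 in Rag_SPIC_tet_NoDOX. All 6 libraries labelled shBCLAF1 were above the other 9, and the 3 Rag_SPIC_tet_DOX libraries lay on both sides of the Rag_SPIC_tet_NoDOX group. By group mean the order was Rag_SPIC_tet_DOX_shBCLAF1 (9.21 ± 0.08), Art_shBCLAF1 (8.79 ± 0.11), Rag_SPIC_tet_DOX (6.21 ± 2.21), Rag_SPIC_tet_NoDOX (5.60 ± 0.18) and Art (4.07 ± 0.20; SD, n = 3). The ranges of the neighbours Rag_SPIC_tet_DOX and Rag_SPIC_tet_NoDOX overlapped, and the others in this order did not.

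The difference by hairpin label for Myc was 4.72 ± 0.14 log2 units (SE, limma adjusted p = 3.52e-05) between Art_shBCLAF1 and Art, or 26.3-fold. Between Rag_SPIC_tet_DOX_shBCLAF1 and Rag_SPIC_tet_DOX it was 3.0 ± 1.0 log2 units (limma adjusted p = 0.0419), or 7.98-fold. That second call rested on a wide group: without Rag_SPIC_tet_DOX replicate 2 the difference was 1.77 ± 0.31 (adjusted p = 0.00328), without replicate 1 it was 3.92, and without any of the other 4 libraries the adjusted p was above 0.05, up to 0.108. Myc was lower in Art than in Rag_SPIC_tet_NoDOX, by a log2 fold change of -1.53 ± 0.16 (adjusted p = 0.0112). That call held in 1 of 6 fits that left out a library, the one without Art replicate 3, with adjusted p up to 0.116 in the others, and it did not hold with all 15 libraries in one fit (adjusted p = 0.16). The Myc value stayed between -1.62 and -1.43 in the 6 fits. Where the call was lost on leaving out a library, the fit called 0 or 1 of all 11551 genes. The log2 fold change of Rag_SPIC_tet_DOX against Rag_SPIC_tet_NoDOX was 0.62 ± 0.95 (adjusted p = 0.665) and did not pass. Without Rag_SPIC_tet_DOX replicate 2 it was 1.84 ± 0.27 (adjusted p = 0.000707), and without replicate 1 it was -0.30, so single libraries set both the call and the direction. The authors' deposited table gives 1.19 for this Myc difference, with an adjusted p of 1.36e-05.

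Mycn, which shares the partner and the binding site of Myc, followed the same group order, at a lower level per kilobase of exon in every group. It stood at 7.13, 6.97 and 7.07 log2 CPM in Art_shBCLAF1, against 3.77, 3.78 and 3.84 in Art. In Rag_SPIC_tet_DOX_shBCLAF1 it stood at 7.07, 7.10 and 7.08 log2 CPM, against 5.95, 4.08 and 5.18 in Rag_SPIC_tet_DOX and 4.92, 4.77 and 4.89 in Rag_SPIC_tet_NoDOX. Both shBCLAF1-labelled groups shared a level of about 7, where their ranges overlapped, and the Rag_SPIC_tet_DOX library with the lowest Myc also had the lowest Mycn of its group. The log2 fold change by hairpin label was 3.26 ± 0.11 in the Art line (adjusted p = 5.27e-05) and 2.01 ± 0.43 in the Rag line (adjusted p = 0.00898). It passed in all 6 fits that left out a library of the Rag comparison, with values between 1.52 and 2.46. Mycn was also lower in Art than in Rag_SPIC_tet_NoDOX, by a log2 fold change of -1.06 ± 0.11 (adjusted p = 0.0113), a call that likewise held in 1 of 6 fits that left out a library (adjusted p up to 0.118 in the others) but passed with all 15 libraries (adjusted p = 0.0345). Its value stayed between -1.10 and -1.03 in those 6 fits. For Mycn, Rag_SPIC_tet_DOX against Rag_SPIC_tet_NoDOX gave 0.21 ± 0.41 (adjusted p = 0.738), and 0.71 ± 0.18 (adjusted p = 0.0118) without Rag_SPIC_tet_DOX replicate 2.

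Max, the obligate partner of both, was nearly level. It stood at 7.27, 7.30 and 7.22 log2 CPM in Art_shBCLAF1, against 7.05, 6.93 and 7.15 in Art. It stood at 7.36, 7.41 and 7.47 log2 CPM in Rag_SPIC_tet_DOX_shBCLAF1, against 7.21, 7.03 and 7.16 in Rag_SPIC_tet_DOX and 7.0, 6.98 and 6.94 in Rag_SPIC_tet_NoDOX. The libraries labelled shBCLAF1 were again the highest, without overlap, but by small margins. Max rose by a log2 fold change of 0.28 ± 0.07 with the label in the Rag line (adjusted p = 0.0145), and the value in the Art line was 0.22 ± 0.11 (adjusted p = 0.146). The authors' deposited tables give 0.26 (adjusted p = 6.18e-07) and 0.25 (adjusted p = 5.65e-05) for these. With each library centred on its own median, a scaling that moved the median of all genes by 0.23 log2 units in the Art comparison and 0.10 in the Rag comparison, the Max values were -0.01 in the Art line and 0.18 (adjusted p = 0.0677) in the Rag line, so neither direction held as a call.

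The MAX-bound repressors did not move as a block. Mxd1 and Mxd4 fell with the hairpin label in both lines, Mxi1 fell in the Rag line, Mxd3 rose in the Art line and fell in the Rag line, and Mnt did not pass in either.

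Mxd1, a repressor known to rise as blood cells leave the cell cycle, stood at 4.93, 5.34 and 4.97 log2 CPM in Art_shBCLAF1, against 6.25, 6.20 and 6.10 in Art. It stood at 5.34, 5.29 and 5.29 log2 CPM in Rag_SPIC_tet_DOX_shBCLAF1, against 6.33, 6.79 and 6.58 in Rag_SPIC_tet_DOX and 6.55, 6.55 and 6.45 in Rag_SPIC_tet_NoDOX. All 6 libraries with the label lay below the other 9, whereas for Myc they lay above. Among the groups without the label the order was not reversed, since Art had the lowest mean for both genes. Its log2 fold change was -1.11 ± 0.15 in the Art line (adjusted p = 0.0017) and -1.26 ± 0.12 in the Rag line (adjusted p = 0.000582). Both passed in every fit that left out a library.

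Mxd4, another MXD repressor, had the highest level per kilobase of exon of the 5 repressors in all groups. It stood at 8.15, 8.44 and 8.21 log2 CPM in Art_shBCLAF1, against 9.24, 9.27 and 9.77 in Art. It stood at 8.51, 8.46 and 8.45 log2 CPM in Rag_SPIC_tet_DOX_shBCLAF1, against 8.95, 9.50 and 9.36 in Rag_SPIC_tet_DOX and 9.15, 9.22 and 9.12 in Rag_SPIC_tet_NoDOX. The label again split the libraries without overlap. Its log2 fold change was -1.16 ± 0.18 in the Art line (adjusted p = 0.00304) and -0.79 ± 0.14 in the Rag line (adjusted p = 0.00468). Its promoter window, printed with those of Mnt and Mlx, holds an E-box.

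Mxi1 and Mxd3 differed between the lines. Mxi1, the MAX-interacting repressor also called MXD2, stood at 6.11, 6.19 and 6.05 log2 CPM in Art_shBCLAF1, against 6.12, 6.02 and 6.50 in Art, and these ranges overlapped. It stood at 5.51, 5.40 and 5.46 log2 CPM in Rag_SPIC_tet_DOX_shBCLAF1, against 6.21, 6.53 and 6.39 in Rag_SPIC_tet_DOX and 6.29, 6.41 and 6.29 in Rag_SPIC_tet_NoDOX. Rag_SPIC_tet_DOX_shBCLAF1 was thus the low group, below the other 12 libraries. The log2 fold change of Mxi1 was -0.10 ± 0.16 in the Art line (adjusted p = 0.629) and -0.92 ± 0.09 in the Rag line (adjusted p = 0.000745).

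Mxd3, the MXD repressor known from cells in S phase, stood at 4.46, 4.18 and 4.46 log2 CPM in Art_shBCLAF1, against 3.06, 3.46 and 4.08 in Art. It stood at 3.34, 3.24 and 2.92 log2 CPM in Rag_SPIC_tet_DOX_shBCLAF1, against 3.94, 4.23 and 4.05 in Rag_SPIC_tet_DOX and 4.42, 4.38 and 4.37 in Rag_SPIC_tet_NoDOX. The groups compared by label did not overlap in either line, and the order was opposite. The log2 fold change of Mxd3 was 0.83 ± 0.27 in the Art line (adjusted p = 0.0443) and -0.91 ± 0.14 in the Rag line (adjusted p = 0.00313). The rise in the Art line was 1.11 ± 0.14 (adjusted p = 2.14e-05) without Art replicate 3, but did not pass without any of the other 5 libraries (adjusted p up to 0.135) or with libraries centred on their medians (0.61, adjusted p = 0.132).

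Mnt, the repressor that most cell types express, stood at 6.43, 6.67 and 6.40 log2 CPM in Art_shBCLAF1, against 6.77, 6.63 and 7.28 in Art. It stood at 6.74, 6.68 and 6.74 log2 CPM in Rag_SPIC_tet_DOX_shBCLAF1, against 6.68, 6.97 and 6.84 in Rag_SPIC_tet_DOX and 6.68, 6.53 and 6.47 in Rag_SPIC_tet_NoDOX. Its groups overlapped in both comparisons by label, with log2 fold changes of -0.39 ± 0.20 (adjusted p = 0.144) in the Art line and -0.11 ± 0.08 (adjusted p = 0.305) in the Rag line. The authors' deposited tables list Mnt as lower in both, at -0.26 (adjusted p = 0.000353) and -0.13 (adjusted p = 0.0108).

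Mlx, the partner used by MondoA, moved slightly and in the same direction in both lines. It stood at 5.42, 5.34 and 5.41 log2 CPM in Art_shBCLAF1, against 5.05, 5.01 and 5.0 in Art. It stood at 5.35, 5.30 and 5.43 log2 CPM in Rag_SPIC_tet_DOX_shBCLAF1, against 5.0, 4.99 and 4.96 in Rag_SPIC_tet_DOX and 4.62, 4.86 and 4.64 in Rag_SPIC_tet_NoDOX. The libraries with the label were the 6 highest and the Rag_SPIC_tet_NoDOX libraries the 3 lowest. The log2 fold change was 0.37 ± 0.11 in the Art line (adjusted p = 0.0286) and 0.38 ± 0.07 in the Rag line (adjusted p = 0.00433). With libraries centred on their medians it was 0.14 in the Art line (adjusted p = 0.312) and 0.28 in the Rag line (adjusted p = 0.0273), and the Art call also failed in 5 of the 6 fits that left out a library.

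Mga, the scaffold of the PRC1.6 complex, showed what a single library can do. It stood at 7.14, 7.35 and 7.41 log2 CPM in Art_shBCLAF1, against 7.50, 7.52 and 6.02 in Art. It stood at 7.44, 7.40 and 7.44 log2 CPM in Rag_SPIC_tet_DOX_shBCLAF1, against 6.88, 7.34 and 6.96 in Rag_SPIC_tet_DOX and 6.84, 7.06 and 6.95 in Rag_SPIC_tet_NoDOX. Art replicate 3 held the lowest Mga value of the 15 libraries and the other Art libraries the 2 highest. In the Art line the log2 fold change was 0.28 ± 0.41 (adjusted p = 0.598) with that library and -0.21 ± 0.08 (adjusted p = 0.0279) without it. The authors' deposited table gives -0.17 with an adjusted p of 0.033 for this Mga difference. In the Rag line Mga rose by 0.37 ± 0.12 log2 units (adjusted p = 0.0398), a call that held in 1 of 6 fits that left out a library and not after median centring (0.26, adjusted p = 0.179).

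Counted over the network, 6 of 10 members passed between Art_shBCLAF1 and Art, with 4 higher (Myc, Mycn, Mxd3, Mlx) and 2 lower (Mxd1, Mxd4), against 49.0% of all genes (25.0% higher, 24.1% lower). For 7 of 10 the groups did not overlap, against 65.6% of all genes. Without Art replicate 3 the count was 8, in a fit that called 80.1% of all genes. Without any of the other 5 libraries it was 4, with 32.4% to 42.1% of all genes called. Between Rag_SPIC_tet_DOX_shBCLAF1 and Rag_SPIC_tet_DOX 9 of 10 members passed, 5 higher and 4 lower, against 53.6% of all genes (28.5% higher, 25.1% lower). For 9 the groups did not overlap, against 66.1%. Without Rag_SPIC_tet_DOX replicate 1 or 2 the count stayed at 9, with 65.6% and 56.2% of all genes called. Leaving out Rag_SPIC_tet_DOX replicate 3 or any 1 labelled library gave 6 or 7, with 34.2% to 37.6% called. Passing the test was common among all genes in both comparisons, so these counts alone do not set the network apart. Median centring left 4 calls in the Art line (Myc, Mycn, Mxd1, Mxd4), against 49.8% of all genes, and 7 in the Rag line, against 50.5%.

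Between Art and Rag_SPIC_tet_NoDOX 2 of 10 members passed, Myc and Mycn, both lower, against 5.14% of all genes (2.58% higher, 2.56% lower). For 6 of 10 members the groups did not overlap, against 37.9% of all genes. These lines differ in genotype, in the SPIC construct and in their history, which cannot be told apart here. Without Art replicate 3, 7 members passed, among them Mga at 0.56 ± 0.06 (adjusted p = 9.99e-07) and Mxd3 at -1.13 ± 0.11 (adjusted p = 1.58e-07). In that fit 47.4% of all genes passed. Without any of the other 5 libraries no member passed and 2 to 4 had an unadjusted p under 0.05, as did 1493 to 2303 of all 11551 genes. Those fits called 0 or 1 of all genes.

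Between Rag_SPIC_tet_DOX and Rag_SPIC_tet_NoDOX limma called 0 of 10 members, against 11.8% of all genes (3.16% higher, 8.67% lower). At an unadjusted p under 0.05 there were 3 (Mxd3, Mlx and Mnt), against 34.2% of all genes, and for 3 members (Max and Mlx higher, Mxd3 lower) the groups did not overlap, against 40.7%. Without Rag_SPIC_tet_DOX replicate 2, 4 members passed: Myc, Mycn, Max at 0.21 ± 0.07 (adjusted p = 0.0445) and Mxd3 at -0.39 ± 0.11 (adjusted p = 0.0196). In that fit 39.6% of all genes passed, so the count is near the share of all genes. The authors' deposited table lists 7 members for this comparison, and the share of all genes it lists was not counted here. With array weights limma called 8 members, in a fit that called 74.4% of all genes. Rag_SPIC_tet_DOX replicate 2, whose removal brought the 4 calls above, had Spic at 4.59 log2 CPM, against 3.72 and 4.31 in the other Rag_SPIC_tet_DOX libraries.

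**Figure D2:**
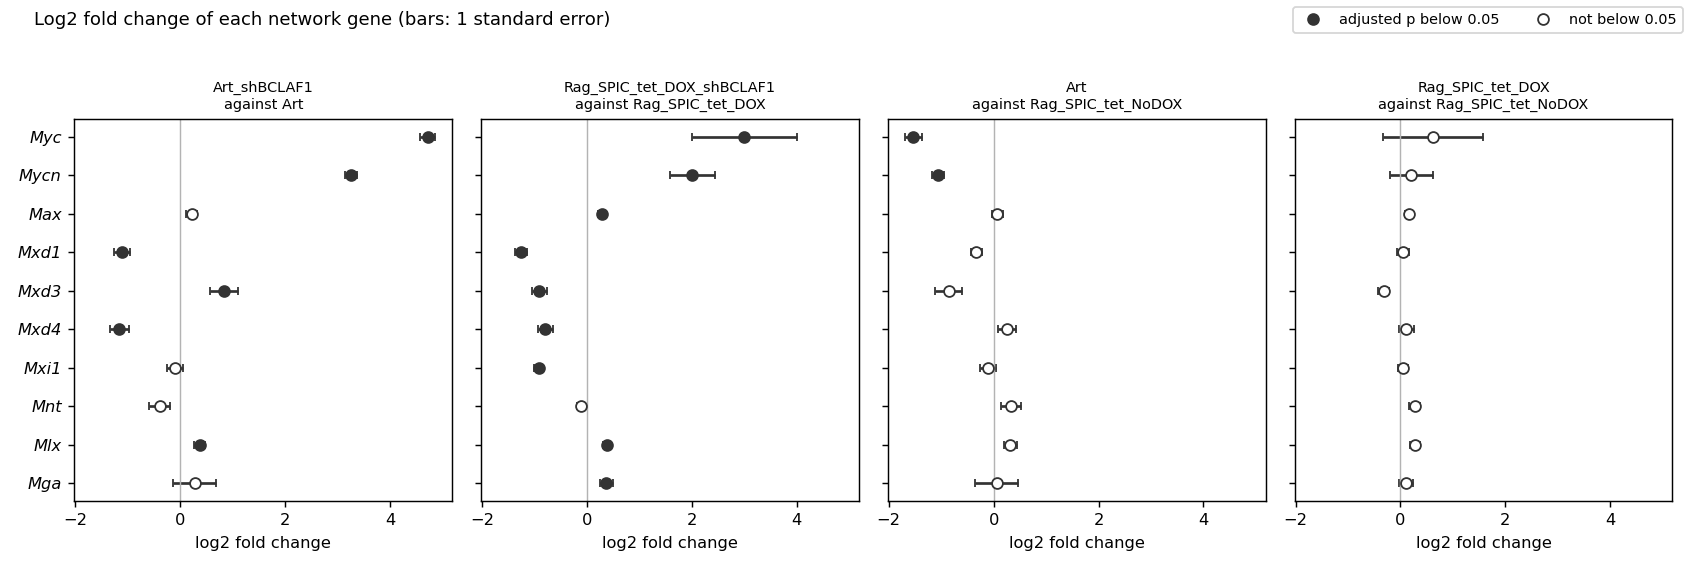
Log2 fold change (horizontal axis, bars of 1 standard error) of the 10 network genes in the 4 comparisons, with filled points where the limma adjusted p was below 0.05. Myc and Mycn stood far to the right in the Art comparison by hairpin label (4.72 and 3.26), with wide bars in both comparisons that use Rag_SPIC_tet_DOX, while the other 8 genes lay between -1.26 and 0.83.

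The comparisons by label were set against each other in a fit over 12 libraries with an interaction term, the Art difference minus the Rag difference. It passed for 2 of 10 members, Mxd3 and Mxi1, against 31.3% of all genes. The Mxd3 differences of 0.83 in the Art line and -0.91 in the Rag line were 1.74 ± 0.33 log2 units apart (adjusted p = 0.00271). Those of Mxi1, -0.10 and -0.92, were 0.82 ± 0.19 apart (adjusted p = 0.00762). Both passed in all 15 alternative fits, with adjusted p up to 0.0097 for Mxd3 and 0.0419 for Mxi1. The Myc differences were 1.72 ± 1.11 apart (adjusted p = 0.262) and those of Mycn 1.24 ± 0.48 (adjusted p = 0.0724), and neither passed. Without Rag_SPIC_tet_DOX replicate 2 both did, at 2.95 for Myc (adjusted p = 0.000423) and 1.74 for Mycn (adjusted p = 0.000658). Without Art replicate 3 the Mga term passed too, at -0.58 (adjusted p = 0.0137). The 2 lines differ in the SPIC construct and DOX as well as in genotype, so the interaction names no factor.

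**Figure D3:**
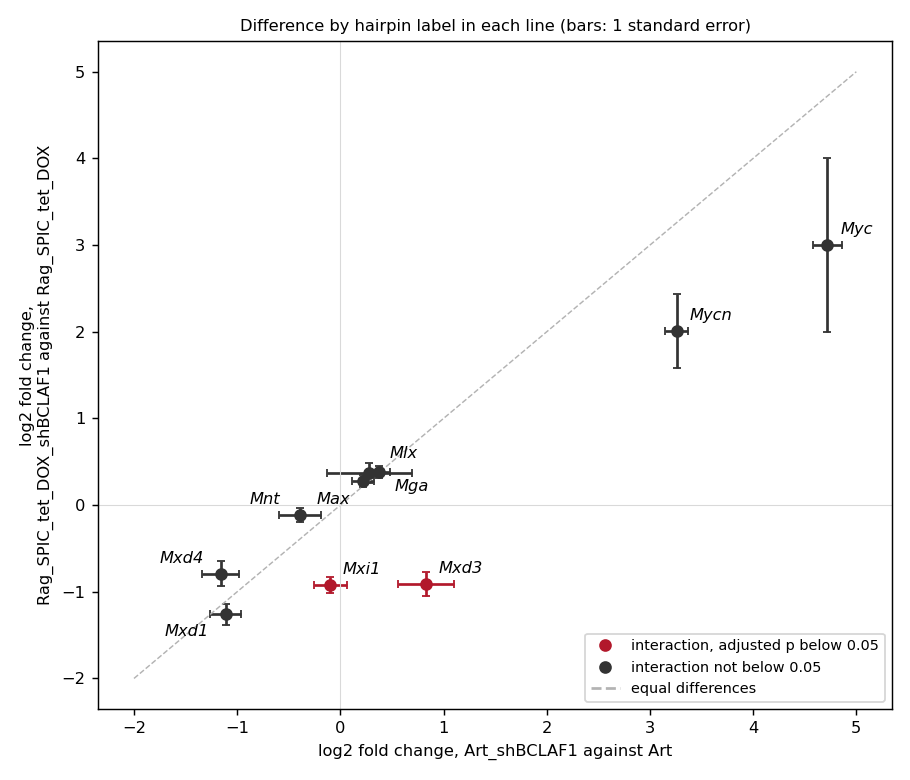
Log2 fold change by hairpin label in the Art line (horizontal axis) and in the Rag line (vertical axis) for each network gene, with bars of 1 standard error and a dashed line of equal differences. Mxd3 (0.83 and -0.91) and Mxi1 (-0.10 and -0.92), in red, passed the interaction test, and Mxd1 and Mlx lay close to the dashed line.

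Levels of different members can be compared only per length of transcript. On the scale of log2 CPM per kilobase of annotated exon (GENCODE, GRCm38), Myc was the highest member at 7.35 in Art_shBCLAF1, against 2.63 in Art, where it was the 8th of 10. It was also the highest at 7.77 in Rag_SPIC_tet_DOX_shBCLAF1, against 4.77 in Rag_SPIC_tet_DOX and 4.15 in Rag_SPIC_tet_NoDOX. Mxd4 was the highest member in the 3 groups without the label, at 6.34 in Art, 6.19 in Rag_SPIC_tet_DOX and 6.08 in Rag_SPIC_tet_NoDOX. Max came next in those groups, at 5.20, 5.28 and 5.13 log2 CPM per kilobase. With the shorter basic annotation Myc was the 9th in Art, and the leading members were the same.

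The ratio of Myc plus Mycn to the 5 MAX-bound repressors (Mxd1, Mxd3, Mxd4, Mxi1 and Mnt) was taken on CPM per kilobase of transcripts. Its activator part differed more between groups than its repressor part. The Myc and Mycn sum was 189 to 218 in Art_shBCLAF1 and 9.51 to 11.4 in Art. The repressor sum was 75.8 to 87.1 and 119 to 166. In the Rag line by label these sums were 247 to 272 against 10.1 to 117, and 79.5 to 82.8 against 109 to 149. The ratio was 2.87, 2.18 and 2.65 in Art_shBCLAF1, against 0.0798, 0.0877 and 0.0686 in Art. It was 2.98, 3.26 and 3.42 in Rag_SPIC_tet_DOX_shBCLAF1, against 1.07, 0.0675 and 0.39 in Rag_SPIC_tet_DOX and 0.238, 0.192 and 0.23 in Rag_SPIC_tet_NoDOX. The activators thus exceeded the repressors in every library with the label and in 1 library without it, Rag_SPIC_tet_DOX replicate 1. Under the basic annotation that library had a ratio of 0.69, and the 6 labelled libraries had 1.47 to 2.27. Myc made up 79.9% to 84.9% of the Myc and Mycn sum in the labelled libraries. It made up 56.4% to 61.8% in Art, 83.9%, 49.3% and 79.1% in Rag_SPIC_tet_DOX and 65.4% to 68.7% in Rag_SPIC_tet_NoDOX, so the Rag_SPIC_tet_DOX share reached that of the labelled libraries in replicate 1 and was the lowest of all libraries in replicate 2. Protein was not measured.

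**Figure D4:**
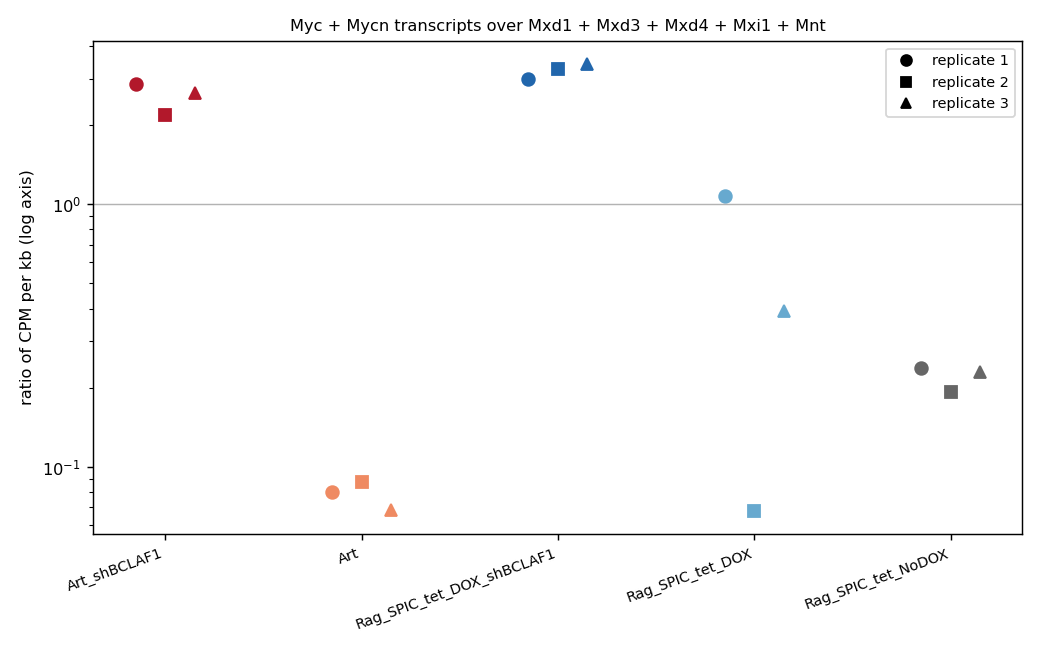
Ratio of Myc plus Mycn to Mxd1, Mxd3, Mxd4, Mxi1 and Mnt, on CPM per kilobase of exon (vertical log axis), with a marker for each library of the 5 groups and a grey line at a ratio of 1. The 6 libraries labelled shBCLAF1 lay between 2.18 and 3.42, the Art libraries below 0.1, and the Rag_SPIC_tet_DOX libraries at 1.07, 0.0675 and 0.39 on both sides of Rag_SPIC_tet_NoDOX.

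Genes that MYC is known to activate rose together with the hairpin label. This list and those that follow were chosen with earlier results of these data known, so their counts beside all genes are a description and no test. Of 46 listed and measured, 40 rose and 2 fell between Art_shBCLAF1 and Art, with a median log2 fold change of 1.95, against 25.0% of all genes higher and a median of 0.05 over all genes. The highest were Srm, spermidine synthase (7.69 ± 0.21 log2 CPM in Art_shBCLAF1, against 2.57 ± 0.64 in Art, log2 fold change 5.12, adjusted p = 0.000158), Bcat1, a branched-chain amino acid transaminase (5.06, adjusted p = 3.52e-05), and Ccnd2, cyclin D2 (4.55, adjusted p = 3.52e-05). The 2 that fell were Tert, the telomerase reverse transcriptase (-1.65, adjusted p = 0.000905), and Slc1a5, a glutamine transporter (-0.43, adjusted p = 0.0241). Between Rag_SPIC_tet_DOX_shBCLAF1 and Rag_SPIC_tet_DOX 36 rose and 0 fell, with a median of 1.39, against 28.5% of all genes higher and a median of 0.05. Among those that passed, the 3 with the largest rise there were Bcat1 (2.40, adjusted p = 0.0339) and the nucleolar proteins Gnl3 (2.31, adjusted p = 0.00473) and Nop56 (2.12, adjusted p = 0.00177). Srm had a larger difference, at 8.07 ± 0.05 log2 CPM in Rag_SPIC_tet_DOX_shBCLAF1 and 4.80 ± 2.69 in Rag_SPIC_tet_DOX (3.27), and did not pass (adjusted p = 0.0585). Without Rag_SPIC_tet_DOX replicate 2 the count in the Rag line was 40 and the median 0.96, in a fit that called 56.2% of all genes.

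In the comparisons without the hairpin the same list turned on single libraries. Between Art and Rag_SPIC_tet_NoDOX 0 rose and 2 fell, Ccnd2 (-1.32, adjusted p = 0.0103) and Bcat1 (-0.93, adjusted p = 0.0243), with a median of -0.19, against -0.03 over all genes. In that fit 10 genes of the list had an unadjusted p under 0.05, and so did 2505 of all 11551 genes, a similar share. Without Art replicate 3, 5 rose and 22 fell, in a fit that called 47.4% of all genes, against 5.14% with all 6 libraries. Between Rag_SPIC_tet_DOX and Rag_SPIC_tet_NoDOX 1 rose (Phb, prohibitin, 0.66, adjusted p = 0.045) and 1 fell (Tert, -0.43, adjusted p = 0.0489), with a median of 0.66, against 0.00 over all genes. Without Rag_SPIC_tet_DOX replicate 2, 40 rose and 1 fell, with a median of 0.99. That fit called 39.6% of all genes, against 11.8% with all 6 libraries.

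Library by library, the list was high where Myc was high. Its median difference from the Rag_SPIC_tet_NoDOX mean was 1.99, 1.78 and 1.94 log2 units in Art_shBCLAF1, against -0.16, -0.16 and 0.08 in Art. It was 1.97, 2.03 and 2.05 in Rag_SPIC_tet_DOX_shBCLAF1, against 1.33, -0.08 and 0.69 in Rag_SPIC_tet_DOX and 0.01, -0.02 and 0.00 in Rag_SPIC_tet_NoDOX. The 3 Rag_SPIC_tet_DOX libraries kept the order of their Myc levels (8.06, 3.76 and 6.83 log2 CPM), and the labelled groups ended at about the same height in both lines. Among the 7 libraries with Myc under 6 log2 CPM the list lay between -0.16 and 0.08 and did not keep the order of Myc: Art replicate 3, with Myc at 4.26, had the highest value of them, above Rag_SPIC_tet_NoDOX with Myc at 5.41 to 5.77. These points share libraries and normalization with Myc itself, and the list and Myc are read from the same RNA.

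**Figure D5:**
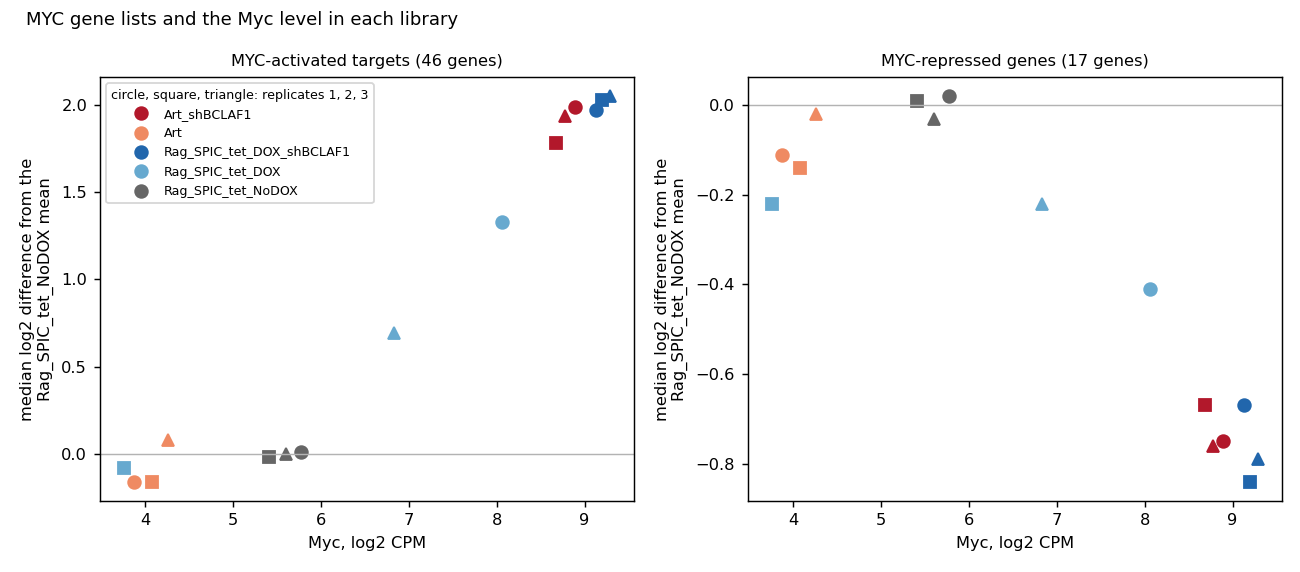
Median log2 difference from the Rag_SPIC_tet_NoDOX mean (vertical axis) of 46 genes activated by MYC (left) and 17 genes repressed by MYC (right), against Myc in log2 CPM (horizontal axis), with a marker for each library. The left panel is flat, between -0.16 and 0.08, in the 7 libraries with Myc under 6 and lies between 1.78 and 2.05 in the 6 labelled libraries, and the right panel drops to between -0.67 and -0.84 in them.

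Genes that MYC is known to repress moved the other way, less uniformly. This list includes the members Mxd4 and Mxi1. Of 17 measured, 2 rose and 7 fell between Art_shBCLAF1 and Art, with a median of -0.25, against 24.1% of all genes lower. The largest falls were in Ndrg2 (0.79 ± 0.62 log2 CPM in Art_shBCLAF1, against 4.29 ± 0.58 in Art, log2 fold change -3.50, adjusted p = 0.00105), the antiproliferative gene Btg2 (-1.51, adjusted p = 0.0129) and Itgal, an integrin chain (-1.44, adjusted p = 0.000621). The 2 that rose were Klf2, a factor linked to lymphocyte quiescence (1.04, adjusted p = 0.0122), and Cdkn2c, a cyclin-dependent kinase inhibitor (0.76, adjusted p = 0.00245). Without Art replicate 3, 4 rose and 10 fell, in a fit that called 80.1% of all genes. In the Rag line 2 rose and 11 fell, with a median of -0.71, against 25.1% of all genes lower. Gadd45a, a stress-response gene, fell there by 1.49 log2 units (3.79 ± 0.19 log2 CPM in Rag_SPIC_tet_DOX_shBCLAF1, against 5.28 ± 0.25 in Rag_SPIC_tet_DOX, adjusted p = 0.000797). Gadd45a was also lower in Rag_SPIC_tet_DOX than in Rag_SPIC_tet_NoDOX (-0.76, adjusted p = 0.0164) and in Art than in Rag_SPIC_tet_NoDOX (-1.44, adjusted p = 0.0288). It was the 1 gene of the list called between Art and Rag_SPIC_tet_NoDOX, whereas 4 fell between Rag_SPIC_tet_DOX and Rag_SPIC_tet_NoDOX, among them Gadd45b (-1.31, adjusted p = 0.00891) and Ddit3 (-0.48, adjusted p = 0.0179). The counts against Rag_SPIC_tet_NoDOX were 4 higher and 8 lower in Art without its replicate 3, and without Rag_SPIC_tet_DOX replicate 2 they were 2 higher and 8 lower in Rag_SPIC_tet_DOX. Of all genes, 47.4% and 39.6% passed in those fits, against 5.14% and 11.8% with all 6 libraries.

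Genes of the MondoA-MLX branch, a list of 8 measured genes that includes Mlx, moved in both directions. Pfkfb3, a glycolytic regulator, rose with the label like Mlx, by 0.91 log2 units in the Art line (adjusted p = 0.00447) and 0.89 in the Rag line (adjusted p = 0.000658). Mlxip, which encodes MondoA, fell with the label, to 7.88 ± 0.08 log2 CPM in Art_shBCLAF1, against 9.89 ± 0.47 in Art (-2.01, adjusted p = 0.00111), and to 8.12 ± 0.01 in Rag_SPIC_tet_DOX_shBCLAF1, against 8.93 ± 0.23 in Rag_SPIC_tet_DOX (-0.81, adjusted p = 0.00237). It was also lower in Rag_SPIC_tet_DOX than in Rag_SPIC_tet_NoDOX (-0.85, adjusted p = 0.0151). Txnip, a glucose-uptake inhibitor and the best known MondoA target, did not pass by label in the Art line (-0.01, adjusted p = 0.925) or the Rag line (-0.17, adjusted p = 0.27). It averaged 7.68 ± 0.03 log2 CPM in Art_shBCLAF1 and 7.69 ± 0.06 in Art, 7.47 ± 0.04 in Rag_SPIC_tet_DOX_shBCLAF1 and 7.65 ± 0.25 in Rag_SPIC_tet_DOX. All 4 of these groups lay below Rag_SPIC_tet_NoDOX, at 8.84 ± 0.08. Txnip and its relative Arrdc3 were lower in Rag_SPIC_tet_DOX than in Rag_SPIC_tet_NoDOX (-1.19, adjusted p = 0.0064, and -1.92, adjusted p = 0.000389) and lower in Art than in Rag_SPIC_tet_NoDOX (-1.15, adjusted p = 0.0103, and -1.87, adjusted p = 0.0104). Of the 8 measured genes of this branch, 2 rose and 3 fell in the Art line by label, against 49.0% of all genes called. In the Rag line 3 rose and 3 fell, against 53.6%. Against Rag_SPIC_tet_NoDOX, 1 rose (Mitf, 1.29, adjusted p = 0.0275) and 2 fell in Art, where 5.14% of all genes passed. In Rag_SPIC_tet_DOX 0 rose and 3 fell, where 11.8% of all genes passed. The first pair of counts against Rag_SPIC_tet_NoDOX was 5 and 2 without Art replicate 3, and without Rag_SPIC_tet_DOX replicate 2 the second was 0 and 4. Those fits called 47.4% and 39.6% of all genes.

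The counts for the machinery around the network stand against 49.0% of all genes called in the Art line by label (25.0% higher, 24.1% lower) and 53.6% in the Rag line (28.5% higher, 25.1% lower). Of 15 measured genes of the MGA complex PRC1.6, 7 rose and 1 fell between Art_shBCLAF1 and Art and 8 rose and 2 fell between Rag_SPIC_tet_DOX_shBCLAF1 and Rag_SPIC_tet_DOX. In the Art line the PRC1.6 counts were 9 and 4 without Art replicate 3, and when any 1 library with the label was left out they were 4 higher in the Art line and 3 or 4 higher in the Rag line. Tfdp1, the partner of E2F factors, rose most in both (2.08, adjusted p = 0.000185, and 1.23, adjusted p = 0.00557). Of 18 SIN3 corepressor genes, 6 rose and 3 fell in the Art line, and 3 rose and 8 fell in the Rag line, with medians of 0.04 and -0.17. Rbbp7, a histone chaperone of that complex, rose by 2.08 log2 units in the Art line (adjusted p = 0.000457).

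Of 21 measured MYC coactivator genes, 7 rose and 2 fell in the Art line, which became 3 and 3 with libraries centred on their medians, and 12 rose and 0 fell in the Rag line. The histone acetyltransferase subunits Ep400 (-0.91, adjusted p = 0.00108) and Trrap (-0.60, adjusted p = 0.00489) were the 2 that fell in the Art line. Of 23 genes that act on MYC protein stability, 9 rose and 2 fell in the Art line and 5 rose and 7 fell in the Rag line, totals of 11 and 12 that are near the share of all genes called. In the Art line without Art replicate 3, a fit that called more genes, the counts were 8 and 6 for SIN3, 10 and 6 for the coactivators and 12 and 4 for MYC stability. Skp2, a ubiquitin ligase subunit, rose by 1.83 log2 units (adjusted p = 0.00189) and Fbxw7, the ubiquitin ligase subunit that marks MYC for degradation, fell by 0.68 (adjusted p = 0.0341) in the Art line. In the Rag line the deubiquitinase Usp36 rose by 1.31 (adjusted p = 0.00197) and the kinase Pim1 by 0.78 (adjusted p = 0.0063). Of the 4 lists on the machinery, counted in the comparisons of Art and of Rag_SPIC_tet_DOX with Rag_SPIC_tet_NoDOX, 0 or 1 gene passed in each direction. These counts turned on single libraries. Without Art replicate 3, a fit in which 47.4% of all genes passed, Art against Rag_SPIC_tet_NoDOX had 2 higher and 7 lower for PRC1.6, 0 and 6 for SIN3, 6 and 2 for the coactivators and 8 and 7 for MYC stability. Without Rag_SPIC_tet_DOX replicate 2, where 39.6% of all genes passed, Rag_SPIC_tet_DOX against Rag_SPIC_tet_NoDOX had 6 higher and 1 lower, 4 and 2, 6 and 2, and 5 and 0 for the lists in that order. With all 6 libraries of each comparison, for SIN3 limma called 0 in both, with 1 and 5 at an unadjusted p under 0.05. Of all 11551 genes, 2505 had such a p in Art against Rag_SPIC_tet_NoDOX and 3953 in Rag_SPIC_tet_DOX against Rag_SPIC_tet_NoDOX.

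Among 22 measured factors known to act on Myc transcription, 1 rose and 12 fell in the Art line, with a median of -0.70, against 25.0% of all genes higher and 24.1% lower. In the Rag line 4 rose and 12 fell, with a median of -0.34, against 28.5% higher and 25.1% lower. Bcl6, a repressor of Myc in pre-B and germinal centre cells, stood at 4.90 ± 0.43 log2 CPM in Art_shBCLAF1, against 7.74 ± 0.14 in Art (-2.84, adjusted p = 0.000301). It stood at 6.29 ± 0.01 in Rag_SPIC_tet_DOX_shBCLAF1, against 7.26 ± 0.34 in Rag_SPIC_tet_DOX (-0.97, adjusted p = 0.00377) and 7.89 ± 0.09 in Rag_SPIC_tet_NoDOX. Prdm1, the plasma cell repressor of Myc, also fell in both lines (-1.66, adjusted p = 0.00667, and -0.92, adjusted p = 0.0096). Notch1, an activator of Myc in T cells, fell in the Art line (-2.22, adjusted p = 0.00104). E2f4 rose in both (1.01, adjusted p = 0.0184, and 0.87, adjusted p = 0.00339), and Ikzf3, the Aiolos repressor of the pre-B stage, rose in the Rag line (1.01, adjusted p = 0.00323). Between Art and Rag_SPIC_tet_NoDOX 1 passed (Tcf7, 0.64, adjusted p = 0.0405), and between Rag_SPIC_tet_DOX and Rag_SPIC_tet_NoDOX 1 passed (Bcl6, -0.63, adjusted p = 0.047). The first of these counts became 5 higher and 4 lower without Art replicate 3, and without Rag_SPIC_tet_DOX replicate 2 the second was 2 higher and 5 lower. Of all genes, 47.4% and 39.6% passed in those fits, against 5.14% and 11.8% with all 6 libraries.

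The genes most like each member were sought by Pearson correlation over the 15 libraries among 8946 genes with a mean of at least 3 log2 CPM, as a description, since the libraries share groups and normalization. Those closest to Myc were Ccnd2 (r = 0.990), Mybl2, a cell-cycle factor (0.989), 3110082I17Rik (0.988), Mycn (0.987) and Dna2, a DNA replication nuclease (0.985). Another member of the network was thus among the 5 genes most like Myc. Mybl2 was also the gene closest to Mycn (0.994), Nol6, a nucleolar protein, to Max (0.968), and Ptdss1 to Mlx (0.969). Crybg1 was the closest to Mxd1 (0.992), Ttc7b to Mxd4 (0.992), Camk2n2 to Mxi1 (0.972), Zfp628 to Mnt (0.953) and Galnt4 to Mga (0.963). Mxd3 was closest to Kif2c (0.952), a mitotic kinesin, which averaged 6.54 log2 CPM in Art_shBCLAF1, against 5.78 in Art, and 5.68 in Rag_SPIC_tet_DOX_shBCLAF1, against 6.44 in Rag_SPIC_tet_DOX and 6.66 in Rag_SPIC_tet_NoDOX.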

How the data were processed

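RNA was sequenced as paired ends from 15 libraries in 5 groups of 3. The submitters' processing notes name Subread, featureCounts 1.4.5, edgeR, limma and the mouse build mm9, with no role or order. The authors deposited 4 tables with log2 CPM for all 15 libraries, with 0.5 added to each read count, and their own log2 fold changes and p-values. The authors' moderated t, log odds and signed folds, score columns per the file headers, were not used. The deposited log2 CPM return whole reads in 100% of values below 1000 reads, within 0.05. Each table lists genes under the authors' adjusted p of 0.05 (highest 0.0499), so the 11551 genes of any table were used, and other genes were not analysed here. The 1 column of Art replicate 3 differs from its label by 1 character. The authors' fold changes were turned to the direction of the text.

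The plan named count tests for count files. As the values are log2 CPM, limma 3.58.1 (R 4.3.3) with a mean-variance trend was fitted to the 6 libraries of each comparison, two-sided. Benjamini-Hochberg adjustment ran over all genes used, with a threshold of 0.05. These genes had passed in some comparison of the authors, so the adjusted p-values may be too small. A check on simulated data came first. For each comparison it gave both groups the same spread per gene, whereas the real groups differed in spread. The interaction used 12 libraries. Alternatives left out each library, blocked on replicate number, used all 15 libraries, array weights, median-centred libraries, 2 reads added, a minimum mean of 1 log2 CPM, no trend, or the authors' fit. The members and all gene lists were chosen with earlier results of these data known. Genes named from the 8 lists, besides members, were drawn from the 3 highest and 3 lowest calls of each comparison, with Spic and Bclaf1 as label genes. Exceptions, chosen after their values were seen, are the myeloid marker genes, Srm in the Rag line and values of a named gene in further comparisons.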

Additional observations from a re-analysis of the deposited data

Results flagged for a closer look

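The difference by hairpin label was itself different between the Art and the Rag line for Mxd3 and Mxi1, by the interaction term of the 12-library fit. For Mxd3, the log2 difference in the Art line minus that in the Rag line was 1.74 ± 0.33 (SE, limma adjusted p = 0.00271). In the Art line 3 of 3 labelled libraries were above every Art library, and in the Rag line 3 of 3 were below every Rag_SPIC_tet_DOX library. For Mxi1 the term was 0.82 ± 0.19 (adjusted p = 0.00762), with overlapping groups in the Art line and 3 of 3 labelled libraries below every Rag_SPIC_tet_DOX library in the Rag line. No explanation for these differences was tested.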

How the results depend on the processing

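Over the network, 2 values changed direction as calls: the Mga difference between Art_shBCLAF1 and Art was -0.21 without Art replicate 3 and -0.17 in the authors' deposited table, against 0.28, and ran between -0.21 and 0.54 when 1 library was left out. With array weights 8 members were called for Rag_SPIC_tet_DOX against Rag_SPIC_tet_NoDOX, with 74.4% of all genes. For Art against Rag_SPIC_tet_NoDOX 8 were called, with 56.7% of all genes. The genes called in these fits were 8589 and 6547, against 1367 and 594 in the main fits. They were 9839 for Art_shBCLAF1 against Art and 10078 for Rag_SPIC_tet_DOX_shBCLAF1 against Rag_SPIC_tet_DOX, against 5664 and 6186. The interaction with array weights passed for 6 members, and its share of all genes was not counted here. With all 15 libraries in 1 fit, 1957 genes passed for Art against Rag_SPIC_tet_NoDOX.

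Leaving out 1 library at a time gave 0 to 4 members and 12 to 4569 genes for Rag_SPIC_tet_DOX against Rag_SPIC_tet_NoDOX, 0 to 7 members and 0 to 5473 genes for Art against Rag_SPIC_tet_NoDOX, 3740 to 9252 genes for Art_shBCLAF1 against Art and 3945 to 7576 genes for Rag_SPIC_tet_DOX_shBCLAF1 against Rag_SPIC_tet_DOX. The interaction passed for 4 members without Rag_SPIC_tet_DOX replicate 2, and the share of all genes in that fit was not counted here. Where limma called 0 genes, 1493 to 2303 had an unadjusted p under 0.05.

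The deviations of same-numbered libraries from their group means had correlations between -0.234 and 0.2. In each comparison that used Art, 1 pair was above 0.1. With 3 libraries per group and no differently numbered pairs for reference, these values do not settle whether replicate numbers paired the samples. With the replicate block 150 genes passed for Rag_SPIC_tet_DOX against Rag_SPIC_tet_NoDOX, and 0 members and 0 genes for Art against Rag_SPIC_tet_NoDOX, where 3 members and 1902 genes had an unadjusted p under 0.05. For Myc and Mycn in that comparison the adjusted p with the block was 0.133 and 0.135. The block left 4 members in Art_shBCLAF1 against Art, with 41.4% of all genes called. It left 8 in Rag_SPIC_tet_DOX_shBCLAF1 against Rag_SPIC_tet_DOX, with 44.8% called.

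The members had 83 reads or more in every library. The tables hold genes that passed in some comparison of the authors, so shares of genes called are those of a selected set. Causes of these changes were not tested.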
